A study of Mus musculus with 4 samples.

Results

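Ribosomal protein genes encode the protein parts of the cytosolic ribosome. RNA sequencing of sorted cervical lymph node B cells, from the nodes that drain the salivary glands, counted reads for 85 such genes among 23418 genes. They were taken by their symbols, which cover the Rpl, Rps and Rplp series and Rpsa, and comprise 52 genes of the large and 33 of the small subunit. Of these, 77 were standard genes and 8 were paralogs, which are duplicates of a standard gene (Rpl3l, Rpl7l1, Rpl10l, Rpl22l1, Rpl36al, Rpl39l, Rps27l and Rps4y2). NOD.B10 mice, a model of Sjögren's disease, have the NOD background with the H2 region replaced by that of a B10 strain, and BL/10 mice were the control strain, with 2 libraries of each. The strain was the only difference between the groups in the labels, which give no age, sex or treatment. Whether the 2 libraries of each strain are from different mice is not stated, and the p-values then cover only the spread between these libraries, possibly of technical origin.

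A ribosome has a large subunit, which joins amino acids, and a small subunit, which reads the mRNA. Each standard ribosomal protein is present about once per ribosome, the stalk proteins excepted, and its mRNA usually begins with a run of pyrimidines, the 5′ terminal oligopyrimidine tract, through which mTORC1 controls its translation. Resting B cells are small and hold little translation machinery, and activated B cells enlarge and build more ribosomes before they divide or secrete antibody.

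Total counts were 19328803 and 25375678 reads in the NOD.B10 libraries and 29372751 and 26150794 reads in the BL/10 libraries. B cell markers summed to 12538 and 12954 CPM (counts per 1000000 reads) in NOD.B10 and to 11190 and 11517 CPM in BL/10, and all 13 of those measured had reads in both strains. Of these, Fcer2a was called higher in NOD.B10 and 0 were called lower (adjusted p under 0.05, edgeR). Other cell types differed as well. All 16 T cell markers were called lower in NOD.B10 (adjusted p under 0.05 in the edgeR fit described below), with sums of 61.9 and 61.8 CPM against 524 and 626 CPM in BL/10, as were all 5 natural killer cell markers tested (sums of 2.85 and 3.92 CPM against 13.3 and 24.3 CPM in BL/10, with Klrk1 and Gzma at 0 in NOD.B10). Erythroid markers summed to 9.74 and 4.27 CPM in NOD.B10 and to 185 and 293 CPM in BL/10. Hba-a1 and Hba-a2 had 0 reads in both strains, and Slc4a1 had 0 reads in NOD.B10 only. The 2 erythroid markers tested, Alas2 and Slc4a1, were called lower. Proliferating cell markers summed to 129 and 119 CPM in NOD.B10 and to 214 and 255 CPM in BL/10, with 3 of 5 called lower. Myeloid markers summed to 36.1 and 23.3 CPM in NOD.B10, with S100a8 and S100a9 at 0, and to 46.8 and 60.2 CPM in BL/10, with 4 of 8 tested called lower. Plasma cell markers summed to 681 and 611 CPM in NOD.B10 and to 704 and 559 CPM in BL/10, with Prdm1 and Tnfrsf17 called lower of 6 tested. Of 3 stroma and endothelium markers tested, Pdgfrb was called higher, with 1.5 and 0.705 CPM in NOD.B10 and 0 and 0.0775 CPM in BL/10. These differences moved with every strain difference given below, and their part in it was not tested. In bulk RNA, fewer cells of a type and less RNA per cell cannot be told apart.

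The 2 BL/10 libraries differed in ribosomal protein reads, which bears on all that follows. In NOD.B10, 24 of the 81 genes with enough reads for a test had more CPM in replicate 2 than in replicate 1, with a median difference of −0.09 on the log2 scale. In BL/10, 78 of the 81 were higher in replicate 2, with a median difference of 0.42. Over all 13075 genes tested, the medians were 0.002 in NOD.B10 and −0.004 in BL/10. The difference was also present, at a smaller size, in other short genes: the 1048 tested genes of at most 961 bases that encode no ribosomal protein had a median difference of −0.06 in NOD.B10 and 0.24 in BL/10. Within the ribosomal protein genes, the 41 shorter ones (up to 703 bases) had a median difference of 0.52 between the BL/10 libraries and the 40 longer ones 0.34. The correlation across the 81 genes between this difference and log2 length was 0.17 (Pearson) in NOD.B10 and −0.34 in BL/10, a description over genes of the same libraries. The main counts below are therefore given also without BL/10 replicate 2.

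**Figure D1:**
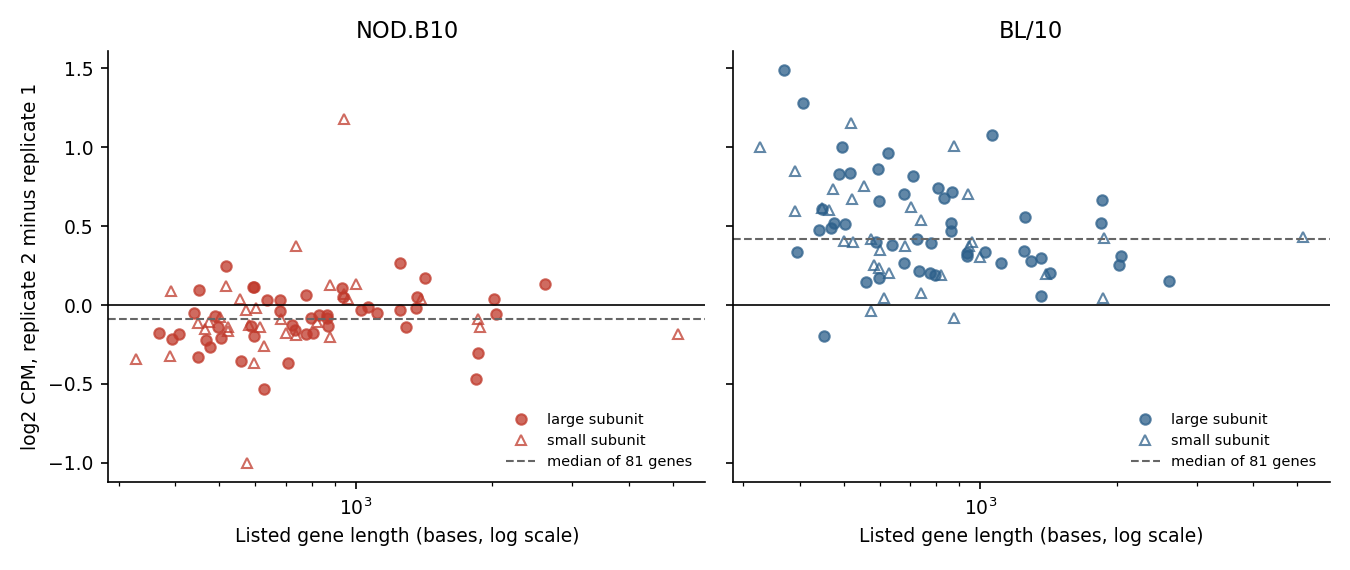
Difference in log2 CPM between replicate 2 and replicate 1 (vertical axis) against the gene length listed in the deposited table (bases, log scale) for the 81 tested ribosomal protein genes, in NOD.B10 (left) and BL/10 (right). Filled circles are large subunit genes, open triangles small subunit genes, and the dashed line is the median, −0.09 in NOD.B10 and 0.42 in BL/10.

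The largest differences between replicates fell on weakly counted genes in NOD.B10 and on short mRNAs in BL/10. In NOD.B10 they were those of Rps4y2 (0.518 CPM in replicate 1 and 1.18 CPM in replicate 2), Rps27 (13.3 and 6.66 CPM) and Rpl30 (0.622 and 0.431 CPM). In BL/10 they were those of Rpl38, Rpl36 and Rps12, which were steadier in NOD.B10. Rpl38 had 101 and 89.1 CPM in NOD.B10 and 50.1 and 141 CPM in BL/10, Rpl36 had 69.3 and 61.0 CPM in NOD.B10 and 42.1 and 102 CPM in BL/10, and Rps12 had 77.7 and 84.6 CPM in NOD.B10 and 69.9 and 156 CPM in BL/10. In all 3 the NOD.B10 values lay between the BL/10 values.

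Ribosomal protein genes took a smaller share of all reads in the NOD.B10 libraries. The 85 genes together held 2.28% and 2.22% of all counts in NOD.B10, against 2.51% and 3.16% in BL/10. Both NOD.B10 libraries were below both BL/10 libraries, and the difference of −0.58 percentage points had an exact permutation p of 0.333 (two-sided), the smallest that 2 libraries against 2 can give. Without BL/10 replicate 2 the difference was −0.26 points, and without BL/10 replicate 1 it was −0.91 points. Exact 95% binomial intervals, which cover counting error only, were within 0.01 points of each share, so counting did not limit this comparison. The large subunit genes held 1.16% and 1.15% in NOD.B10 and 1.31% and 1.65% in BL/10. The small subunit genes held 1.13% and 1.07% in NOD.B10 and 1.20% and 1.51% in BL/10.

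**Figure D2:**
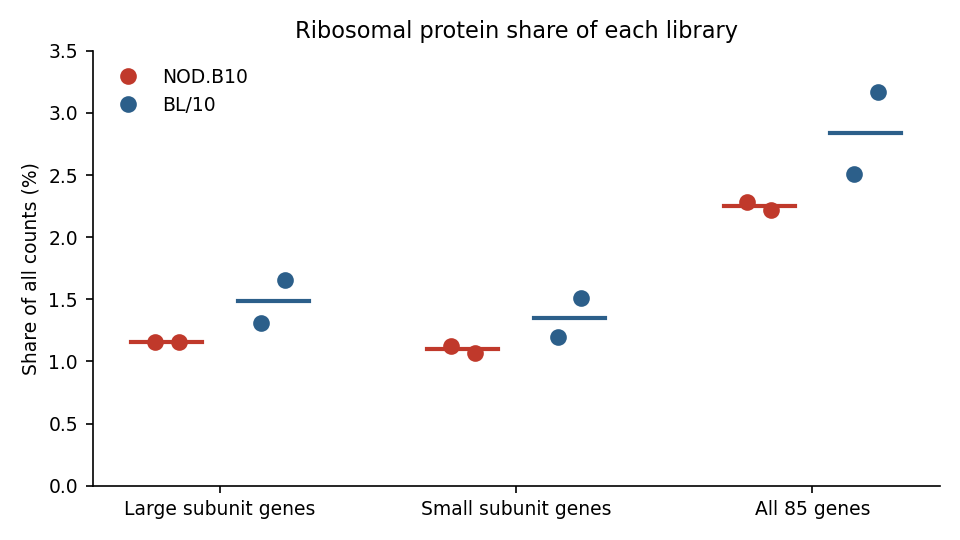
Share of all counts (%) held by the large subunit genes, the small subunit genes and all 85 genes in each library, with NOD.B10 in red and BL/10 in blue. Points are libraries and lines are means of 2. The NOD.B10 libraries lie at 2.22% and 2.28% for all 85 genes, below both BL/10 libraries at 2.51% and 3.16%.

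Gene by gene, ribosomal protein genes were lower in NOD.B10 or not called, and 0 were called higher. Of the 85 genes, 81 had enough reads to be tested, and 21 of them were called lower (edgeR quasi-likelihood test, Benjamini-Hochberg adjusted p under 0.05), or 25.9%, where 8.63% of all genes tested were called lower and 6.55% higher. The log2 fold change, NOD.B10 over BL/10, was negative in 75 of the 81, with a median of −0.27 against −0.003 over all genes tested. In 41 of the 81 genes both NOD.B10 libraries lay below both BL/10 libraries, and in 0 did both lie above, where 27.7% and 27.9% of all genes tested did so. Among the 4133 other tested genes with a mean of at least 50 CPM, 5.44% were called lower and the median was 0.02. Among the 1048 other short genes, 6.49% were called lower and the median was −0.06.

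The size of this shift depended on BL/10 replicate 2. Without it, 16 genes were called lower and 6 higher (Rpl11, Rpl23, Rpl28, Rpl36, Rpl36al and Rpl38), the log2 fold change was negative in 48 of the 81, and the median was −0.07. The median over all genes tested in that fit was −0.002. The share of ribosomal protein genes called higher was close to that over all genes tested, and the share called lower was above it. In 41 genes both NOD.B10 libraries lay below the remaining BL/10 library. Genes below both BL/10 libraries must also lie below 1 of them, so this count adds no support. Of the 21 genes called with all libraries, 14 were still called lower, and Rps24 and Rps4x were added. Without BL/10 replicate 1 there were 60 lower calls and a median of −0.54. Without NOD.B10 replicate 1 the count was 21 and without NOD.B10 replicate 2 it was 16. The 12 genes called lower in all 14 alternatives were Rpl3, Rpl5, Rpl17, Rpl21, Rpl29, Rpl35, Rpl35a, Rpl37a, Rplp0, Rplp1, Rps16 and Rps19.

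**Figure D3:**
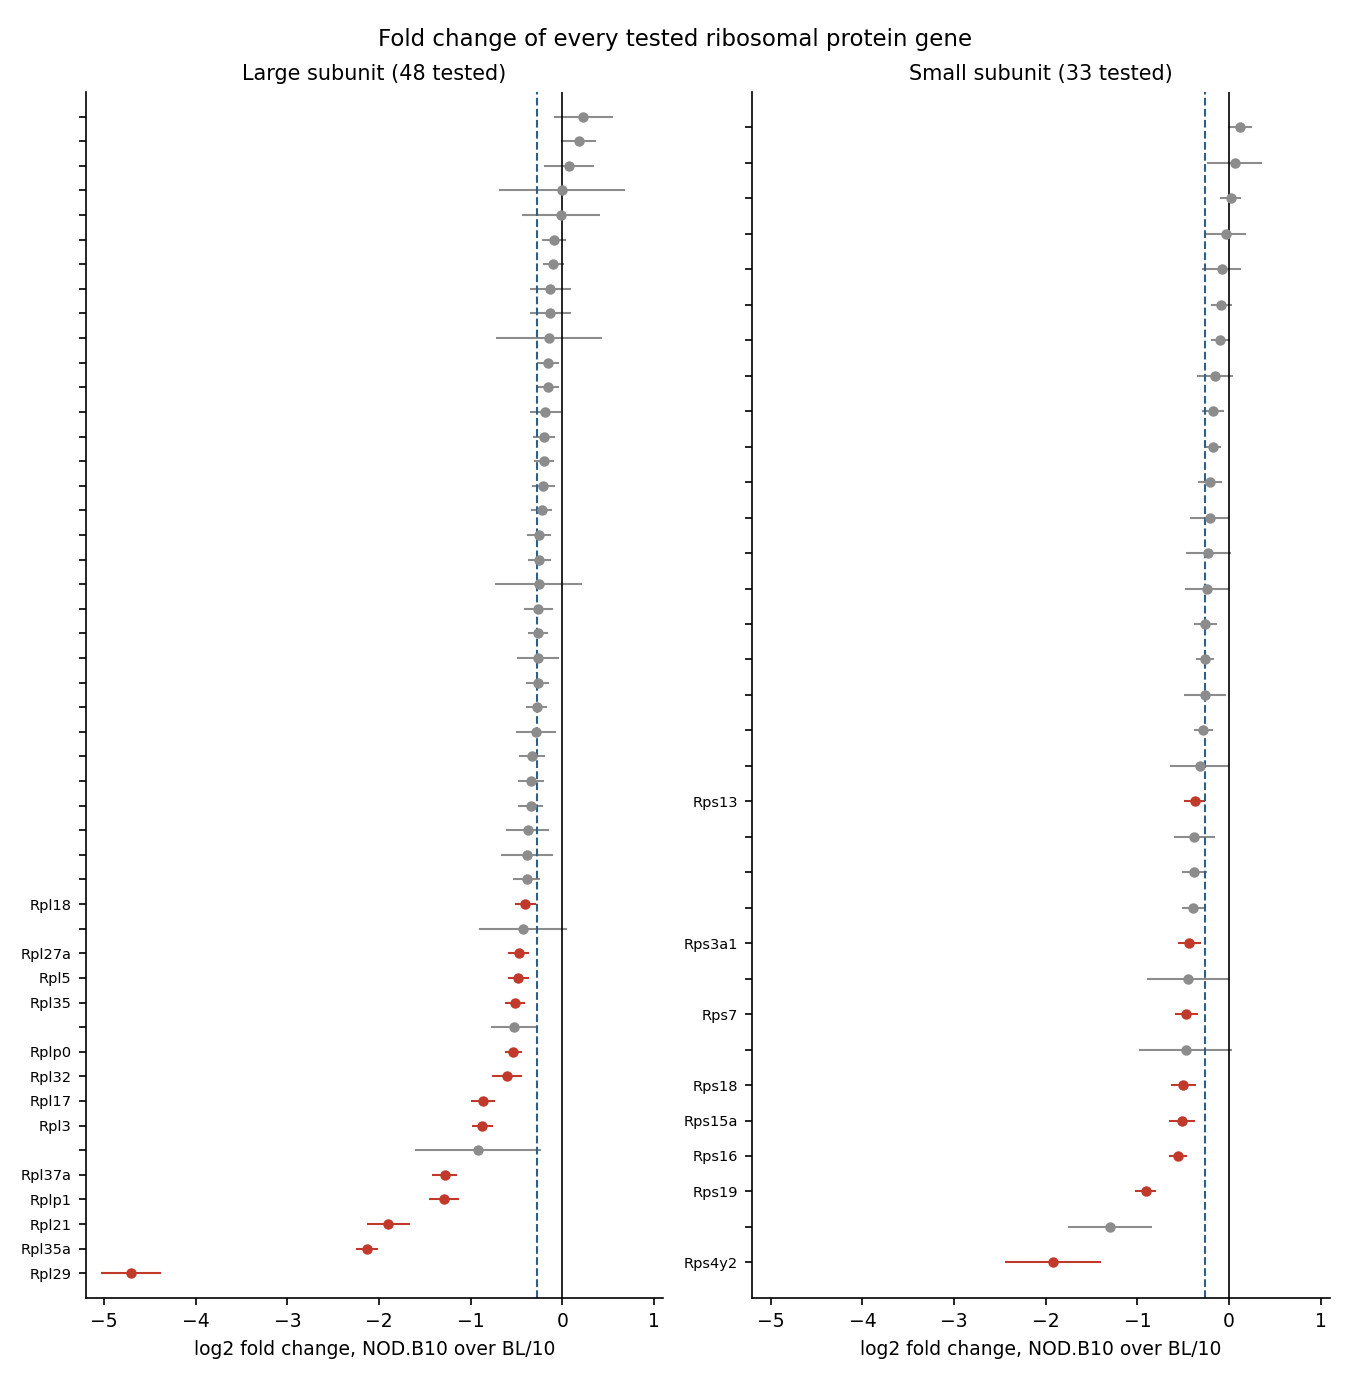
Fitted log2 fold change, NOD.B10 over BL/10, with its standard error (bars), for the 48 large subunit genes (left) and 33 small subunit genes (right) that were tested. Red points, labelled by gene, are the 21 genes called lower, grey points were not called, and the dashed lines are the medians of −0.28 and −0.26. Rpl29, at −4.71, stands farthest from 0.

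Rpl29, a large subunit protein that is also known as a heparin-binding protein, showed the largest difference. It had 36 and 37 reads (1.87 and 1.45 CPM) in NOD.B10 and 923 and 1418 reads (31.2 and 55.0 CPM) in BL/10, so the strains were far apart in every library. The log2 fold change was −4.71 (SE 0.33, adjusted p = 2.19e-05, edgeR), which was −4.25 without BL/10 replicate 2. Rpl29 lies at chr9:106428889-106431568 (GRCm38), and 7 of the 29 other genes tested within 1000000 bases of it were called (24.1%), 3 lower and 4 higher, where 15.2% of all genes tested and 13.9% of the genes around the called ribosomal protein genes were called in either direction. Its reads are uncertain in amount. Of the 50-base windows of its coding sequence, 90.3% occurred without mismatch in transcripts of 84 other genes, 81 of them annotated as pseudogenes. Of the 3 pseudogene copies with rows of their own in the table, 2 were tested and neither was called. Gm10548 had 210 and 249 reads in NOD.B10 and 256 and 167 reads in BL/10, and 4931440P22Rik had 190 and 107 reads in NOD.B10 and 222 and 205 reads in BL/10, while Gm8580 had 4 and 7 reads in NOD.B10 and 2 and 4 reads in BL/10.

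Rpl35a and Rpl21, both large subunit genes, came next among the standard genes. Rpl35a, which is mutated in some families with Diamond-Blackfan anaemia in humans, had 38.9 and 42.0 CPM in NOD.B10 and 167 and 188 CPM in BL/10 (log2 fold change −2.13, SE 0.12, adjusted p = 7.13e-08, edgeR). The replicates of each strain were close, and the value without BL/10 replicate 2 was −2.06. Rpl21 had 212 and 227 reads in NOD.B10 and 847 and 1170 reads in BL/10 (log2 fold change −1.90, SE 0.23, adjusted p = 2.64e-04, edgeR). All coding windows of Rpl21 occurred in other genes, 82 of them, so its count may hold reads of copies or lack its own. Rpl37a, a zinc-binding protein, had 91.6 and 83.5 CPM in NOD.B10 and 184 and 242 CPM in BL/10 (log2 fold change −1.28, SE 0.14, adjusted p = 4.69e-05, edgeR).

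The stalk of the large subunit, which recruits the elongation factors, consists of Rplp0 and the paired proteins Rplp1 and Rplp2. All 3 genes had both NOD.B10 libraries below both BL/10 libraries. The same held for 50.6% of all ribosomal protein genes tested and 27.7% of all genes tested. Rplp1 had 284 and 243 CPM in NOD.B10 and 535 and 751 CPM in BL/10, which in NOD.B10 was 2.44-fold lower (log2 difference −1.29, SE 0.16, adjusted p = 0.001, edgeR). Rplp0, which anchors the other two and is often used as a reference gene in quantitative PCR, had 896 and 884 CPM in NOD.B10 and 1266 and 1315 CPM in BL/10 (log2 fold change −0.54, SE 0.09, adjusted p = 0.00164, edgeR). Its BL/10 replicates differed by 0.05 on the log2 scale, and its fold change was −0.52 without BL/10 replicate 2. Rplp2 had 426 and 412 CPM in NOD.B10 and 443 and 617 CPM in BL/10 and was not called (log2 fold change −0.34, adjusted p = 0.16, edgeR). Rpl12, at the base of the stalk, was not called either, with 450 and 461 CPM in NOD.B10 and 457 and 596 CPM in BL/10.

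Rpl5 and Rpl11 form a particle with 5S rRNA that, when not built into ribosomes, binds the p53 regulator Mdm2. Rpl5 had 238 and 244 CPM in NOD.B10 and 306 and 365 CPM in BL/10 and was called (log2 fold change −0.48, SE 0.11, adjusted p = 0.0105, edgeR). Rpl11 had 156 and 169 CPM in NOD.B10, values that lay between the BL/10 libraries at 98.3 and 179 CPM, and was not called. Around the peptidyl transferase centre, where peptide bonds form, Rpl3 had 234 and 242 CPM in NOD.B10 and 391 and 481 CPM in BL/10 (log2 fold change −0.87, SE 0.12, adjusted p = 1.65e-04, edgeR). Its neighbours there, Rpl4, Rpl8 and Rpl10, had log2 fold changes of −0.26, −0.33 and −0.20 and were not called. In each, both NOD.B10 libraries lay below both BL/10 libraries, as in 50.6% of all ribosomal protein genes and 27.7% of all genes tested.

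Around the exit of the peptide tunnel, where chaperones and the signal recognition particle dock, 2 of 6 tested genes were called. That was 33.3%, against 25.9% of all ribosomal protein genes tested. Rpl17 had 45.2 and 39.9 CPM in NOD.B10 and 72.0 and 82.9 CPM in BL/10 (log2 fold change −0.86, SE 0.13, adjusted p = 4.95e-04, edgeR). Rpl35 had 212 and 227 CPM in NOD.B10 and 336 and 293 CPM in BL/10 (log2 fold change −0.52, SE 0.11, adjusted p = 0.00582, edgeR), and unlike most of the genes it was lower in BL/10 replicate 2 than in replicate 1. The other called large subunit genes were Rpl32, Rpl27a and Rpl18, with log2 fold changes of −0.61, −0.48 and −0.40. Rpl32 lost its call under upper-quartile factors, limma-voom and a replicate block (adjusted p = 0.0581, 0.0564 and 0.0548), Rpl27a lost it without NOD.B10 replicate 2 (adjusted p = 0.0518), and Rpl18 kept it only in the fits that held both NOD.B10 libraries and BL/10 replicate 2.

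In the small subunit, 8 of 33 genes were called lower (24.2%), against 25.9% of all ribosomal protein genes tested and 8.63% of all genes tested. Rps19, a protein of the subunit's head and the gene most often mutated in Diamond-Blackfan anaemia in humans, had 306 and 255 CPM in NOD.B10 and 490 and 565 CPM in BL/10 (log2 fold change −0.91, SE 0.12, adjusted p = 1.5e-04, edgeR). Rps16, also of the head, had 408 and 371 CPM in NOD.B10 and 563 and 580 CPM in BL/10 (log2 fold change −0.55, SE 0.10, adjusted p = 0.00215, edgeR). These 2 genes kept their calls without BL/10 replicate 2. Rps18, Rps15a, Rps7, Rps3a1 and Rps13, with log2 fold changes between −0.51 and −0.38, lost theirs there, with adjusted p between 0.0649 and 0.115. Of the 14 genes of the head that were tested, 3 were called (21.4%), a share near that of all ribosomal protein genes tested. Rps24, chosen here after its values were seen, had 312 and 272 CPM in NOD.B10 and 477 and 957 CPM in BL/10, and with its BL/10 replicates so far apart the 2.46-fold lower mean in NOD.B10 was not called with all libraries (SE 0.46 on the log2 scale, adjusted p = 0.255, edgeR).

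**Figure D4:**
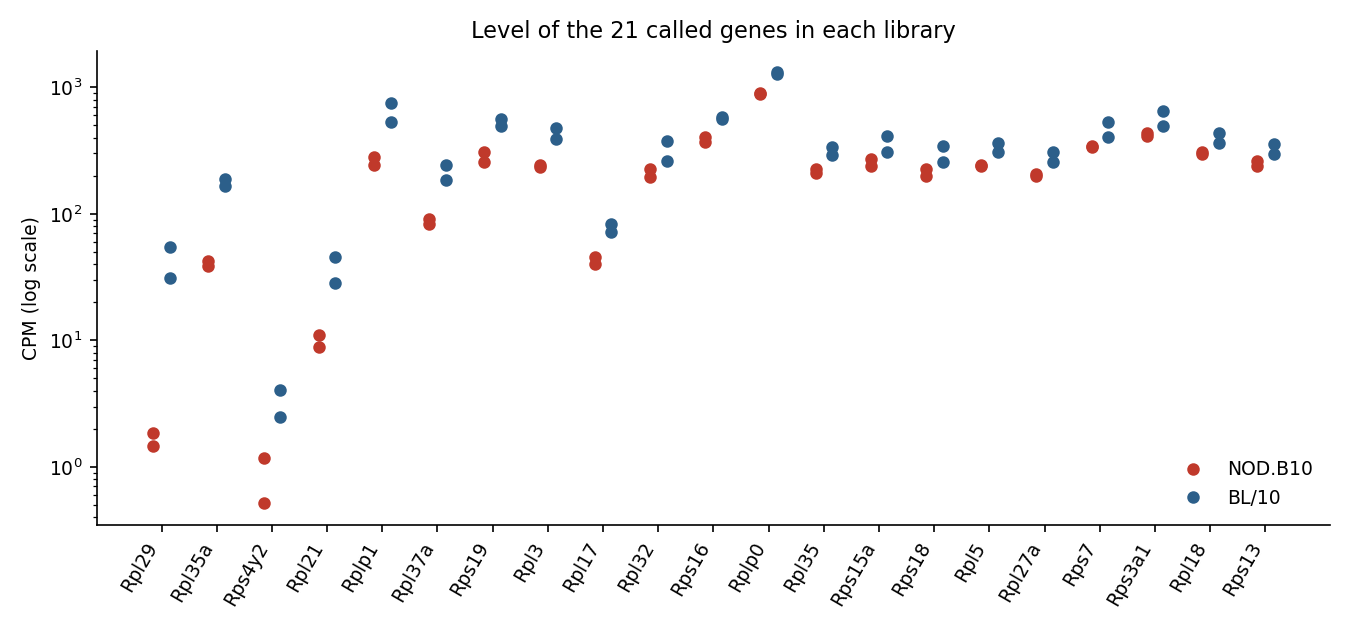
Level (CPM, log scale) of the 21 called genes in each library, ordered by fold change from the largest at the left, with NOD.B10 in red and BL/10 in blue. Both NOD.B10 libraries lie below both BL/10 libraries in each gene, from 26.0-fold between the means in Rpl29 at the left to 240 and 262 CPM against 297 and 354 CPM in Rps13 at the right.

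Most of the highly counted genes were not called. In the large subunit these were Rpl4 (1239 and 1397 CPM in NOD.B10, 1472 and 1695 CPM in BL/10), Rplp0 and Rpl8 (865 and 817 CPM in NOD.B10, 890 and 1231 CPM in BL/10). In the small subunit they were Rpsa, which also serves as a laminin-binding protein (1032 and 969 CPM in NOD.B10, 1115 and 1149 CPM in BL/10), Rps3 (885 and 802 CPM in NOD.B10, 830 and 1116 CPM in BL/10) and Rps4x (712 and 777 CPM in NOD.B10, 919 and 869 CPM in BL/10). Of these 6, Rplp0 was called. Per 1000 bases of listed length, levels ran from 1096 CPM in NOD.B10 and 1008 CPM in BL/10 for Rps14 at the top of the NOD.B10 order to 0.841 CPM in NOD.B10 and 1.59 CPM in BL/10 for Rpl30 among the standard genes with reads. Above Rpl30, the lowest standard genes per 1000 bases in the NOD.B10 order were Rpl29 (2.33 CPM in NOD.B10, 60.7 CPM in BL/10), Rpl34 (2.60 CPM in NOD.B10, 3.5 CPM in BL/10), Rpl21 (5.36 CPM in NOD.B10, 19.9 CPM in BL/10), Rps27 (17.4 CPM in NOD.B10, 16.5 CPM in BL/10) and Rpl15 (37.4 CPM in NOD.B10, 40.9 CPM in BL/10). Rpl26 had 0 reads in all libraries, which allows up to 0.155 and 0.118 CPM in the NOD.B10 libraries and 0.101 and 0.116 CPM in the BL/10 libraries (3 reads each, counting error only).

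Reads of these genes are hard to place, because the genome holds many processed copies of them. In 61 of the 85 genes at least 80% of the 50-base windows of the coding sequence occurred without mismatch in annotated transcripts of other genes, and in 31 genes every window did. How reads with several alignments were counted is not given in the sources used here. Across the 81 tested genes, the share of such windows had a Spearman correlation of 0.10 with the fold change and −0.37 with the average level, both descriptions over genes of the same libraries. The 13 tested genes with under 50% of windows shared had a median log2 fold change of −0.26 with 2 called lower, and the 60 with at least 80% had a median of −0.28 with 17 called lower. Of 15 rows of the table that are annotated pseudogene copies, 7 were tested and 0 were called, and 0 of them had more than 436 reads in a library. Since 15.2% of all genes tested were called in either direction, 0 of 7 cannot show that the copies were unchanged.

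With all libraries the large and the small subunit gave close values. Of 48 large subunit genes tested, 13 were called lower, with a median log2 fold change of −0.28, and of 33 small subunit genes 8 were called lower, with a median of −0.26. The difference between these medians was −0.01. Without BL/10 replicate 2 the medians lay farther apart, at −0.09 for the large and −0.002 for the small subunit. The median over all genes tested in that fit was −0.002. Within a library, the log2 ratio of large to small subunit reads, in which library scaling cancels, was 0.04 and 0.11 in NOD.B10 and 0.13 in both BL/10 libraries. The difference of −0.06 had an exact permutation p of 0.333 (two-sided), the smallest possible. It was −0.021 without NOD.B10 replicate 1 and −0.096 without NOD.B10 replicate 2, and its direction depended on how the ratio was formed: with medians of log2 CPM in place of sums it was 0.15. The replicates of both subunits moved alike, with medians of −0.07 (large) and −0.10 (small) between the NOD.B10 libraries and 0.44 (large) and 0.41 (small) between the BL/10 libraries.

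Paralogs of ribosomal protein genes arose by duplication, and several are used in place of the standard gene in particular tissues. Among the 8, Rpl10l, known from testis, had 0 reads, Rpl39l, also known from testis, had 0 and 0 reads in NOD.B10 and 12 and 2 in BL/10, and Rpl3l, known from striated muscle, had 1 and 2 reads in NOD.B10 and 4 and 2 in BL/10. None of these 3 was tested. The paralogs that B cells did express could be told from their standard partners by sequence, though not always from other genes. Rpl36al (chromosome 12) and Rpl36a (chromosome X) differ at 39 of 318 coding bases and Rps27l (chromosome 9) and Rps27 (chromosome 3) at 60 of 252, and in all 8 pairs 0 of the 50-base windows were shared. The first 60 coding bases of these pairs, from the GENCODE M21 transcripts on GRCm38, show how the differences are spread, with the bases at which the partners differ in capitals:
Rpl36al: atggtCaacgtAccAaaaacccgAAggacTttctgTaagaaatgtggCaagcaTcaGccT
Rpl36a: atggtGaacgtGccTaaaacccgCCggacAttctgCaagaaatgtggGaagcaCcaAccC
Rps27l: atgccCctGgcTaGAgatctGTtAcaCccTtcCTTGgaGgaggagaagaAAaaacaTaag
Rps27: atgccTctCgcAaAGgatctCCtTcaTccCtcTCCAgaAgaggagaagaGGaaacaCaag
There are 11 differing bases in the stretch of the Rpl36a pair and 18 in that of the Rps27 pair.

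The balance between paralog and partner was read from their ratio within each library, for the 5 pairs with at least 10 reads of each gene. These ratios may hold or lack reads of copies. Every coding window of Rpl36al, Rpl36a and Rps27 occurred in other genes. The share was 90.1% in Rps4x, 81.5% in Rpl22l1, 77.5% in Rpl7 and 48.3% in Rps27l. It was 31% in Rpl22, 21.9% in Rpl7l1 and 14.9% in Rps4y2. Rps27 was also weakly counted, at 13.3 and 6.66 CPM in NOD.B10 and 9.63 and 9.38 CPM in BL/10. The paralog Rpl36al made up 35.2% and 40.3% of the pair's reads in NOD.B10 and 30.7% and 30.8% in BL/10. Rpl22l1, which in mice is raised when Rpl22 is lost, made up 22.2% and 19.8% in NOD.B10 and 15.4% and 17.4% in BL/10. Rpl7l1 made up 16.5% and 16.7% in NOD.B10 and 15.7% and 14.2% in BL/10. In these 3 pairs both NOD.B10 libraries were above both BL/10 libraries, with log2 ratios higher by 0.45, 0.44 and 0.18. The difference for Rpl7l1 was 0.089 without BL/10 replicate 2, and that for Rpl36al was 0.29 without NOD.B10 replicate 2. Each exact permutation p (two-sided) was 0.333, the smallest possible, or 0.417 adjusted over the 5 pairs, so the design cannot call such a difference. In the pair of Rps27l, a p53 target gene, the paralog had 53.3% and 67.2% of reads in NOD.B10 and 55.0% and 65.5% in BL/10, and the strains overlapped (exact p = 1). In edgeR, 4 of the 5 paralogs were not called, with log2 fold changes of 0.18 (Rpl22l1), 0.07 (Rpl36al), −0.04 (Rps27l) and −0.10 (Rpl7l1), while the median of the 76 standard genes tested was −0.28.

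**Figure D5:**
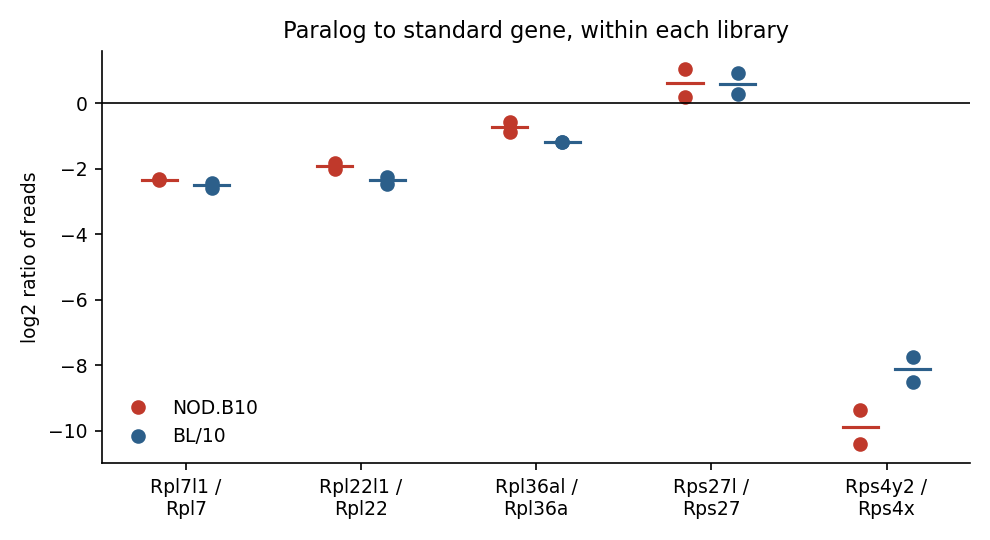
Log2 ratio of paralog reads to reads of the standard gene in each library, for the 5 pairs with enough reads, with NOD.B10 in red and BL/10 in blue. Points are libraries and lines are means of 2. NOD.B10 lies above BL/10 in the pairs of Rpl7l1, Rpl22l1 and Rpl36al, overlaps it for Rps27l and lies below it for Rps4y2.

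Rps4y2, listed in RefSeq as Rps4l, a transcribed pseudogene at chr6:148354656-148355596 (GRCm38), was the called paralog. It had 10 and 30 reads in NOD.B10 and 74 and 105 reads in BL/10 (log2 fold change −1.92, SE 0.52, adjusted p = 0.0243, edgeR), a call lost without BL/10 replicate 2 (adjusted p = 0.17). Its X-linked partner Rps4x had 13728 and 19850 reads in NOD.B10 and 27205 and 22422 reads in BL/10, so Rps4y2 made up 0.07% and 0.15% of the pair in NOD.B10 and 0.27% and 0.47% in BL/10. The sequences were identical at 631 of 789 aligned bases, with identical runs of up to 35 bases.

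The pyrimidine tract, which was not used to choose these genes, was looked for at their start sites in the reference. RefSeq promoters (GRCm38.p6) were available for 64 of the 85 genes, with 76 start sites. A window of 15 bases either side of each start was read on the gene's strand. A C at the start followed by at least 4 bases that are C or T occurred at 17.1% of the genes' start sites, against 2.29% of 12027 start sites of other tested genes and 2.51% of all 32851. A run of at least 8 bases that are C or T lay in 36.8% of the windows, against 12.1% and 12%, and on the other strand in 3.95%, against 12.4% and 13.2%. The windows of 4 called genes with the tract at the start are shown first, then Rps6 and Rplp2, which were not called and have it, then Rplp0 and Rpl37a, which were called and have no such tract in this window. For Rpl35a only the start site with the tract is shown, and its other start sites had none in their windows. Capitals mark the tract:
Rpl35, chr2:39005117-39005146, minus strand: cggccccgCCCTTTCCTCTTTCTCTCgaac
Rpl35a, chr16:33056467-33056496, plus strand: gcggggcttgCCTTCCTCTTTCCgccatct
Rps15a, chr7:118116133-118116162, minus strand: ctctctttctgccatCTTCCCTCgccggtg
Rps18, chr17:33955651-33955680, minus strand: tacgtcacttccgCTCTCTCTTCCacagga
Rps6, chr4:86857353-86857382, minus strand: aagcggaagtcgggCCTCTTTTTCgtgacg
Rplp2, chr7:141447636-141447665, plus strand: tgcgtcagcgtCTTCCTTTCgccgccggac
Rplp0, chr5:115559452-115559481, plus strand: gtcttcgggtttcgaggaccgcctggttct
Rpl37a, chr1:72711245-72711274, plus strand: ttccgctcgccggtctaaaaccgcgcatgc
The tract was found in both called and uncalled genes. It lay at 22.2% of the 18 start sites of called genes and 17.0% of the 53 of genes tested and not called, 4 and 9 sites.

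Genes with related roles were fitted in the same test. Fau and Gnb2l1 (Rack1), a ribosomal protein precursor and a ribosomal partner outside the symbol series, had log2 fold changes of −0.17 and −0.24 and were not called. Of 27 elongation factors and other genes whose mRNAs carry the pyrimidine tract, 4 were called lower (14.8%, against 8.63% of all genes tested) and 0 higher, with a median of −0.13. Npm1, a nucleolar protein of ribosome assembly, had 139 and 159 CPM in NOD.B10 and 206 and 258 CPM in BL/10 (log2 fold change −0.64, adjusted p = 0.00485, edgeR). Eif3e, a subunit of an initiation factor, had a log2 fold change of −0.58, and Tpt1, the translationally controlled tumour protein, one of −0.44, and both were called. Btf3 was the other called gene, at −0.40, a call lost without NOD.B10 replicate 1. Eef2, the translocation factor, was not called, with 3300 and 3303 CPM in NOD.B10 and 3919 and 3714 CPM in BL/10.

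Among the genes that build ribosomes the median was near 0 with all libraries. Over all genes tested, 6.55% were called higher and 8.63% lower, or 15.2% in either direction, beside which the counts of this paragraph stand. Of 72 ribosome assembly factors, 2 were called higher and 1 lower (1.39%), smaller shares than these, with a median log2 fold change of 0.01. Without BL/10 replicate 2 there were 11 higher calls and 1 lower, with a median of 0.14. Pes1, which matures large subunit rRNA, had 78.2 and 92.0 CPM in NOD.B10 and 39.0 and 55.4 CPM in BL/10 (log2 fold change 0.85, adjusted p = 0.00658, edgeR), Mdn1, the large subunit remodelling ATPase, was called higher (0.38) and Noc2l lower (−0.60). Among 26 other initiation factors 0 were called in edgeR, with 2 at an unadjusted p under 0.05, and the median was −0.03; without BL/10 replicate 2 there were 3 higher calls and 1 lower. Among 7 ribosomal protein chaperones 0 were called, with 0 at an unadjusted p under 0.05. Of 14 RNA polymerase I genes 1 was called, Polr1b, at −0.53, a call lost without NOD.B10 replicate 1 and without BL/10 replicate 2. Of 29 genes of mTORC1 and Myc control 4 were called, all lower (13.8%, against 8.63% of all genes tested): the Myc antagonists Mxi1, Mxd1 and Mxd4, with log2 fold changes of −1.12, −0.57 and −0.49, and Ddit4, an mTORC1 inhibitor, at −0.76. Of 11 ribosome quality control genes, Ascc2 and Ascc3 were called higher (0.71 and 0.40) and Ankzf1 lower (−0.60). The calls of Mdn1, Mxd1, Mxd4, Ascc3 and Ankzf1 were each lost in some fit with a library left out. Over these 7 lists, 15 genes were called, and 30 without BL/10 replicate 2.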

How the data were processed

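The authors deposited 1 table of raw read counts per gene symbol with the gene length. Per the submitters' processing notes, build mm10 was used, with HISAT2 2.1.0, featureCounts, Subread 1.6.5 and SAMtools 1.3 among the tools. The annotation, strandedness and handling of multiply aligned reads are not given in the sources used here. Each column carries the library name of 1 sample. Strains were compared with edgeR 4.0.16 in R 4.3.3 (TMM factors, robust glmQLFit, glmQLFTest, two-sided) over 13075 genes kept by filterByExpr (minimum count 10, minimum total 15), with Benjamini-Hochberg adjustment over all of them. CPM use TMM-scaled library sizes. The SE is the unshrunk fold change over the root of the F statistic. Levels per length use the deposited gene length, since no table of proteins was used. Shared windows used GENCODE M21 transcripts; positions and promoters came from RefSeq (GRCm38.p6), in which all 85 symbols matched. Named genes were the called members, the 3 most counted of each subunit, the stalk genes and Rpsa, paralogs with partners, the 3 with the largest replicate differences, genes at 0 and up to 3 called genes of each list (4 where all are given). Genes outside this rule (Rpl10, Rpl11, Rpl12, Rpl15, Rpl23, Rpl28, Rpl34, Rps24, Rps6, Rps14) were picked after their values were seen. Members and lists were chosen with earlier results of these data known. The test was run on simulated counts of 13075 genes, with 50 genes changed at each size. It recovered 10 of 50 genes changed 1.5-fold, 33 of 50 changed 2-fold, 42 of 50 changed 4-fold and all 50 changed 8-fold. Of its 159 calls, 24 fell on unchanged genes, a larger share than the adjusted p threshold allows. Most 1.5-fold differences were thus missed there, and some of the calls reported here may be false. Alternatives were other factors (RLE, upper quartile, none, TMM without these genes), other filters, DESeq2 1.42.0, limma-voom 3.58.1, non-robust dispersion, a replicate block and each library left out. The labels do not say whether same-numbered libraries were handled together. Their deviations from the strain means correlated at −0.02 over all genes tested, which cannot settle this.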

Additional observations from a re-analysis of the deposited data

How the results depend on the processing

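The count of 21 lower calls was between 18 and 23 under other scaling, the stricter filter, other tools, non-robust dispersion and the replicate block, was 20 with the standard genes only (an alternative chosen after seeing the data), and was 32 with no filter. With each library left out it lay between 16 and 60, the count of higher calls between 0 and 6, the median log2 fold change between −0.54 and −0.071, and the calls in the related lists between 10 and 30. The difference in the large to small ratio was −0.06 from sums and 0.15 from medians of log2 CPM. The Rps27l ratio difference lay between −0.42 and 0.43 with a library left out. The ratio differences of the other 4 pairs and the share of counts kept their direction in all alternatives run. In these measures the strains did not overlap, so leaving out a library could not reverse the direction. The unchanged direction therefore adds no support. The replicate block gave 18 lower calls and lost Rpl32, Rps13 and Rps15a. In the labels, same-numbered libraries share only a number.

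Of the 60 genes not called, the fold change crossed 0 in 33 with a library left out and in 4 of these under another setting. It crossed 0 in 0 of the 21 called genes. In each called gene both NOD.B10 libraries lay below both BL/10 libraries, so a crossing with a library left out was nearly excluded beforehand. The contrast therefore adds no support to the calls. Values of the fold change follow for the uncalled genes that crossed 0 and were singled out by the rule for named genes. For Rpl38 it was 0.0083 with total counts, 0.19 with limma-voom and 0.17 with the replicate block, and −0.57 to 0.91 with a library left out. For Rps27 it was −0.071 with limma-voom and −0.0042 with the replicate block, and −0.52 to 0.49 with a library left out, and for Rps27l 0.00075 with limma-voom and −0.31 to 0.28. With a library left out it was −0.29 to 0.54 for Rpl36al, −0.057 to 0.45 for Rpl22l1, −0.65 to 0.62 for Rpl36, −0.74 to 0.079 for Rpl36a, −0.94 to 0.21 for Rps12 and −0.40 to 0.013 for Rps3. The causes were not tested. In fits with 1 library of a strain, that library is assumed to vary like the others. With 2 libraries a strain, an exact test of a single value cannot pass the threshold, and a missed call does not show equal levels.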
